A study of Mus musculus with 8 samples.

Results

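The genes described here are 6 genes of the cytotoxic machinery of lymphocytes, namely the granzymes Gzma, Gzmb and Gzmk, the pore-forming protein gene Prf1, the granule gene Nkg7 and the death ligand gene Fasl. They were taken by name from the array files, which hold 8 non-control probes on 17 spots for them, out of 41174 probes for 27670 genes. All 6 genes passed the filter on dim probes, as did 17996 of the 27670 genes. Each of Gzma, Gzmb, Gzmk and Prf1 had 1 probe, while Nkg7 and Fasl had 2, and the probe that was brightest on average stood for the gene.

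RNA came from CD4+ T cells sorted from male C57BL/6 mice aged 15 weeks, whose spleens and lymph nodes had been pooled. The 4 groups were Treg (regulatory T cells), CD44hi, CD44lo and naive cells, with 2 samples in each and 1 Agilent mouse array with a single dye (Cy3) per sample. The series title gives the mice as Ox40-cre/ROSA-YFP, in which the promoter of the activation receptor Ox40 drives the recombinase and cells that once used it carry a yellow fluorescent mark. The same strain is given for all 4 groups, no control without the alleles is among them, and the labels name neither the sort gates nor the YFP state of a group. Whether the samples numbered 1 and 2 came from separate animals is not stated, so the p-values cover only how far these samples lie apart, and that distance may be technical.

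Cytotoxic lymphocytes carry granules that hold perforin and granzymes. Perforin, the product of Prf1, opens pores in the membrane of a target cell, and granzymes, a family of serine proteases, enter and cleave proteins inside it. Fas ligand, the product of Fasl, works by another route, as it sits on the cell surface and binds the death receptor Fas. The full set is best known from CD8 T cells and NK cells, and subsets of CD4 T cells can use parts of it, including regulatory T cells, in which granzyme B has been tied to the killing of other immune cells.

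The share of probes well above background ran from 59.2% to 68.8% over the arrays. Levels were scaled to the 75th percentile of an array's processed signal, which was lowest on the naive arrays, at 991 and 639, and 1045 to 1337 on the other 6. Each of the 2 slides held 1 array of every group. The labels were checked against markers. Foxp3, which defines regulatory T cells, had a log2 level of 2.77 and 2.68 in Treg, -0.24 and -0.10 in CD44hi, 0.35 and 0.84 in CD44lo and -5.41 and -4.68 in naive, so it was highest in Treg but well above background in every group. All 6 markers listed for CD4 T cells were well above background in every group, but the 3 CD3 genes, Cd5 and Lat among them mark T cells in general. Cd4 itself read 1324 and 1409 in Treg, 2867 and 1614 in CD44hi, 1775 and 1828 in CD44lo and 2197 and 480.2 in naive. Cd44 was highest in CD44hi.

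Gzmb encodes granzyme B, which cleaves caspases and other proteins after aspartate. Its probe lies on the minus strand of chromosome 14 (mm7, chr14:51126432-51126491). The processed signal was 1543 and 2802 in Treg, 998.9 and 917.7 in CD44hi, 353.6 and 279.9 in CD44lo, and 9.675 and 5.068 in naive, where neither array was well above background. No 2 groups overlapped, and the order was Treg, CD44hi, CD44lo and naive. Since the naive level is only a bound, Gzmb was at least 109-fold higher in Treg, at least 52.2-fold higher in CD44hi and at least 19.5-fold higher in CD44lo than in naive on the processed-signal scale. In the same fit, limma gave Benjamini-Hochberg adjusted p-values of 2.42e-05, 3.54e-05 and 1.95e-04 for these differences. Each such fold sets the mean of the bright group against the lowest signal that was well above background on the naive arrays. These folds hold for that background correction only, since the log2 differences from naive were 4.28 in Treg, 3.25 in CD44hi and 2.00 in CD44lo with normexp background correction, and 4.85, 3.79 and 2.495 in the authors' deposited values. All 3 stayed called on both scales. Treg also exceeded CD44lo 5.59-fold (log2 2.48 ± 0.26 SE, adjusted p = 0.00518), and CD44hi exceeded CD44lo 2.68-fold (log2 1.42 ± 0.26, adjusted p = 0.0209). The step between Treg and CD44hi, log2 1.06 ± 0.26, was not called (adjusted p = 0.0588), with 0.68 on slide 1 and 1.44 on slide 2. It was called with slide as a term (adjusted p = 0.0495), with an intensity trend (0.0354), with normexp (0.0252) and in the authors' deposited values (0.0219), so this step lies at the threshold. Leaving out either CD44hi array or either CD44lo array ended the call of CD44hi over CD44lo, with adjusted p up to 0.118, as did testing without a filter on dim probes (adjusted p = 0.0647), while the differences from naive were called without any 1 array.

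Gzma encodes granzyme A, a protease that cuts after basic residues and acts without caspases. It was read by the following probe on the minus strand of chromosome 13 (mm7, chr13:110251676-110251735), shown because the result rests on this 1 stretch.
Gzma A_51_P162794: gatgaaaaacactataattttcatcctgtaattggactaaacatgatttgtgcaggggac
The processed signal was 101.0 and 107.1 in Treg, 265.2 and 252.3 in CD44hi, 75.27 and 55.82 in CD44lo and 23.77 and 24.59 in naive. All 8 arrays were well above background, CD44hi was highest and naive lowest, and the groups did not overlap. Gzma was 2.74-fold higher in Treg than in naive (log2 1.46 ± 0.26, limma, Benjamini-Hochberg adjusted p = 0.00989) and 7.1-fold higher in CD44hi than in naive (log2 2.83 ± 0.26, adjusted p = 4.88e-04). CD44lo differed from naive by log2 1.02 ± 0.26, which was not called (adjusted p = 0.0932), and the value was 0.45 on slide 1 and 1.59 on slide 2. Treg fell 2.59-fold below CD44hi (log2 -1.37 ± 0.26, adjusted p = 0.0253), and CD44hi rose 3.51-fold over CD44lo (log2 1.81 ± 0.26, adjusted p = 0.00911). Treg and CD44lo, neighbours in the order, differed by log2 0.44 ± 0.26 (adjusted p = 0.463). With normexp background correction and in the authors' deposited values, CD44hi lay above naive by log2 1.29 and 1.605, and above CD44lo by 1.08 and 1.185, all called. The call of Treg over naive was lost without Treg array 1 or 2 (adjusted p = 0.0611 and 0.0652) and with normexp background correction, where the difference was log2 0.31 (adjusted p = 0.234). In the authors' deposited values it was log2 0.62 and called (adjusted p = 0.0169). The call of Treg below CD44hi was lost without either array of either group (adjusted p up to 0.166) and without a filter on dim probes (adjusted p = 0.077), and that of CD44hi over CD44lo without CD44lo array 2 (adjusted p = 0.0554).

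Gzmk encodes granzyme K, which cuts after basic residues as granzyme A does. In RefSeq (GRCm38.p6) the genes stand side by side on chromosome 13, with 0 protein-coding genes between them. The probe of Gzmk, also on the minus strand (mm7, chr13:110327790-110327849), was the following.
Gzmk A_51_P166556: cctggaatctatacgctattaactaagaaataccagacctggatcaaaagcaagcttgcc
The processed signal was 24.72 and 40.28 in Treg, 1006 and 1139 in CD44hi, 297.2 and 383.2 in CD44lo and 2.820 and 5.518 in naive, where neither array was well above background. The order therefore was CD44hi, CD44lo, Treg and naive, without overlap. Gzmk was at least 58.4-fold higher in CD44hi (adjusted p = 1.33e-04) and at least 20.9-fold higher in CD44lo (adjusted p = 8.42e-04) than in naive, by limma with Benjamini-Hochberg adjustment. These bounds too hold on the processed-signal scale only, as the log2 differences from naive were 3.57 in CD44hi and 2.22 in CD44lo with normexp and 4.205 and 2.795 in the authors' deposited values, all called. It was 35.3-fold lower in Treg than in CD44hi (log2 -5.14 ± 0.49, adjusted p = 0.00213) and 12.7-fold lower in Treg than in CD44lo (log2 -3.66 ± 0.49, adjusted p = 0.011). With normexp these differences were log2 -3.66 and -2.31, and in the authors' deposited values -3.71 and -2.30, all called. The last call was lost without any 1 of the Treg or CD44lo arrays, with adjusted p up to 0.0752. CD44hi and CD44lo differed by log2 1.48 ± 0.49, which was not called (adjusted p = 0.132). It was called in 5 of 18 alternatives, namely with normexp, in the authors' deposited values, in a fit of only the 2 groups compared and without either naive array (lowest adjusted p = 0.00297). In Treg the level was at least 1.65-fold higher than in naive (adjusted p = 0.0177). This was the only called difference of the 6 genes whose sign turned under an alternative that was run. The call was lost without Treg array 1 or 2 (adjusted p = 0.0544 and 0.13), without a filter on dim probes (adjusted p = 0.0512) and in the authors' deposited values (log2 0.50, adjusted p = 0.084), and the sign turned with normexp background correction (log2 -0.09, adjusted p = 0.753).

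Gzmb and Gzmk thus had opposite places in Treg, the first at its highest there and the second far below both CD44 groups. The array design does not allow the level of one probe to be set against that of another, so whether Gzmb or Gzmk had more RNA in a group was not asked.

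Prf1, the perforin gene, followed another order. Its probe on the plus strand of chromosome 10 (mm7, chr10:60821367-60821426) is shown because the direction below rests on it alone.
Prf1 A_52_P335178: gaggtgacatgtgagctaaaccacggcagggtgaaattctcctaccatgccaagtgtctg
The processed signal was 642.5 and 682.4 in Treg, 342.3 and 240.5 in CD44hi, 1825 and 1653 in CD44lo and 2839 and 930.9 in naive. After scaling to each array's 75th percentile, the log2 level was -0.86 and -0.97 in Treg, -1.82 and -2.31 in CD44hi, 0.80 and 0.63 in CD44lo and 1.52 and 0.54 in naive. CD44hi was lowest, Treg next, and CD44lo and naive overlapped at the top, with a wide gap between the naive arrays. Relative to naive, Prf1 fell 3.85-fold in Treg (log2 -1.94 ± 0.33, limma, Benjamini-Hochberg adjusted p = 0.00795) and 8.53-fold in CD44hi (log2 -3.09 ± 0.33, adjusted p = 9.05e-04). CD44hi also fell 6.88-fold below CD44lo (log2 -2.78 ± 0.33, adjusted p = 0.00472), and both differences of CD44hi were called without any 1 array. Within the slides, CD44hi minus naive was -2.36 and -3.82. Treg lay 3.1-fold below CD44lo (log2 -1.63 ± 0.33, adjusted p = 0.0406), a call that was lost without any of the 2 Treg, 2 CD44hi or 2 CD44lo arrays (adjusted p up to 0.245). It was also lost with slide as a term (adjusted p = 0.0724), with quantile normalization (0.0539) and without a filter on dim probes (0.12). The call of Treg below naive was lost without Treg array 2 (log2 -1.89, adjusted p = 0.0661). CD44lo and naive differed by log2 -0.31 ± 0.33 (adjusted p = 0.576), which turned to 0.18 without naive array 1, and Treg and CD44hi differed by log2 1.15 ± 0.33 (adjusted p = 0.097). The last difference was called with the replicate block (adjusted p = 0.0391), with an intensity trend (0.049) and without naive array 1 or 2 (0.0265 and 0.0267).

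Nkg7 encodes a membrane protein of cytotoxic granules that takes part in their release. Its brighter probe lies on the plus strand of chromosome 7 (mm7, chr7:39613682-39613741). Its processed signal was 5313 and 5622 in Treg, 25240 and 20370 in CD44hi, 3310 and 3565 in CD44lo and 199.1 and 198.6 in naive. CD44hi was highest, naive lowest, and no groups overlapped. Relative to naive, Nkg7 rose 17.5-fold in Treg (log2 4.13 ± 0.23, limma, Benjamini-Hochberg adjusted p = 8.80e-05), 75.7-fold in CD44hi (log2 6.24 ± 0.23, adjusted p = 2.77e-05) and 13-fold in CD44lo (log2 3.70 ± 0.23, adjusted p = 3.39e-04). Treg was 4.32-fold below CD44hi (log2 -2.11 ± 0.23, adjusted p = 0.00336), and CD44hi was 5.81-fold above CD44lo (log2 2.54 ± 0.23, adjusted p = 0.00262). Treg and CD44lo differed by log2 0.43 ± 0.23 (adjusted p = 0.416). All 5 calls were kept without any 1 array, and within slides the difference of CD44hi from naive was 6.07 and 6.41.

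The other Nkg7 probe lies upstream in the same orientation (mm7, chr7:39613348-39613407) and is shown because it read another stretch of the gene.
Nkg7 A_51_P499195: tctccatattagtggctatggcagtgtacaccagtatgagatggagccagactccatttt
It read 2860 and 3405 in Treg, 14970 and 11280 in CD44hi, 1792 and 1929 in CD44lo and 95.17 and 76.53 in naive. In a fit of 27162 probes, its log2 differences from naive were 4.54 ± 0.19 in Treg (adjusted p = 4.07e-05), 6.66 ± 0.19 in CD44hi (adjusted p = 2.49e-05) and 4.04 ± 0.19 in CD44lo (adjusted p = 1.77e-04). The order of the groups and the calls were the same as for the brighter probe.

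Fasl was the flattest of the 6 genes. Its brighter probe, on the minus strand of chromosome 1 (mm7, chr1:161743675-161743734), was printed on 10 spots of each array, and the SD of log2 signal between these spots was 0.0403 to 0.0947 on the 8 arrays. The mean processed signal was 734.5 and 610.0 in Treg, 2086 and 1685 in CD44hi, 1206 and 914.4 in CD44lo and 1152 and 726.0 in naive. After scaling, the log2 level was -0.67 and -1.13 in Treg, 0.79 and 0.50 in CD44hi, 0.21 and -0.22 in CD44lo and 0.22 and 0.18 in naive. CD44hi was highest and Treg lowest, with CD44lo and naive overlapping between them. Fasl was 2.92-fold lower in Treg than in CD44hi (log2 -1.54 ± 0.23, limma, Benjamini-Hochberg adjusted p = 0.0102) and 2.14-fold lower in Treg than in naive (log2 -1.10 ± 0.23, adjusted p = 0.018). The first call was lost without Treg array 2 (adjusted p = 0.0838), and the second without Treg array 2 (adjusted p = 0.135) or naive array 2 (adjusted p = 0.063). The second was also lost with the mean of the probes (log2 -0.78, adjusted p = 0.0782) and without a filter on dim probes (adjusted p = 0.0562). No other pair was called, the log2 differences being 0.44 for CD44hi minus naive (adjusted p = 0.195), -0.21 for CD44lo minus naive (adjusted p = 0.593), -0.89 for Treg minus CD44lo (adjusted p = 0.0861) and 0.65 for CD44hi minus CD44lo (adjusted p = 0.155). Treg minus CD44lo was called with normexp, in the authors' deposited values, with an intensity trend and with the replicate block (adjusted p between 0.0314 and 0.0466).

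The other Fasl probe, on the minus strand of chromosome 1 (mm7, chr1:161750452-161750511), gave a weaker result and is shown for that reason.
Fasl A_52_P173985: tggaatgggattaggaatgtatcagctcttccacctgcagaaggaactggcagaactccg
Its mean log2 level was -2.61 ± 0.13 in Treg, -1.15 ± 0.11 in CD44hi, -1.85 ± 0.24 in CD44lo and -2.16 ± 0.75 in naive (SD, n = 2 arrays each). It kept the order of Treg below CD44hi (log2 -1.46 ± 0.34, adjusted p = 0.0555), but Treg minus naive was -0.45 ± 0.34 (adjusted p = 0.371) and CD44lo minus naive was 0.30 ± 0.34 (adjusted p = 0.608). None of the 6 differences of this probe was called. Exons and untranslated regions were not assigned to the probes, as an annotation of mm7 was not used here.

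**Figure D1:**
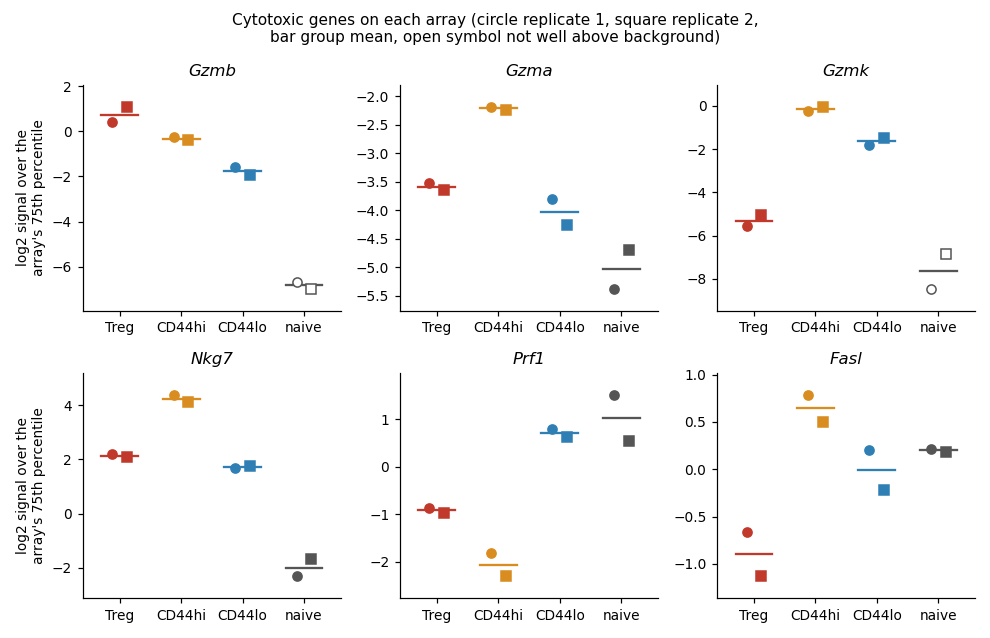
Log2 processed signal over the array's 75th percentile (y axis) of the brightest probe of each gene in Treg, CD44hi, CD44lo and naive, with 1 point per array and a bar at the group mean. Gzmb was highest in Treg, Gzma, Gzmk, Nkg7 and Fasl in CD44hi, and Prf1 in CD44lo and naive, while Gzmb and Gzmk were not well above background in naive.

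Counted over the comparisons, the genes stood as follows. Of the 6 genes, 4 were higher in Treg than in naive (Gzma, Gzmb, Gzmk and Nkg7) and 2 lower (Prf1 and Fasl), where 11.6% of all 17996 tested genes were higher and 10.3% lower. In CD44hi against naive, 4 were higher (Gzma, Gzmb, Gzmk and Nkg7) and 1 lower (Prf1), against 13.2% and 14.5% of all tested genes. In CD44lo against naive, 3 were higher (Gzmb, Gzmk and Nkg7) and 0 lower, against 4.53% and 0.761%. These 3 comparisons share the naive arrays, so they are not independent of each other.

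Between the other groups, 0 of the 6 genes were higher and 4 lower in Treg than in CD44hi (Gzma, Gzmk, Nkg7 and Fasl), against 4.15% and 4.04% of all tested genes. In Treg against CD44lo, 1 was higher (Gzmb) and 2 lower (Gzmk and Prf1), against 3.7% and 1.87%. In CD44hi against CD44lo, 3 were higher (Gzma, Gzmb and Nkg7) and 1 lower (Prf1), against 6.06% and 3.31%. The genes were picked with earlier results of these arrays known, so the counts describe the 6 genes and are no test of them as a set. The median log2 difference of the 6 genes was 1.90 in Treg, 4.54 in CD44hi and 2.36 in CD44lo relative to naive, where the median of all tested genes was -0.20, -0.15 and -0.13. It was -1.46 for Treg minus CD44hi, -0.23 for Treg minus CD44lo and 1.45 for CD44hi minus CD44lo, beside -0.04, -0.07 and -0.04 for all tested genes.

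Several calls depended on single arrays. In the cases named next, fewer of all tested genes were called too, so the loss was not confined to the 6 genes. Without Treg array 2, 2 of 6 genes were called in Treg against naive, in place of 6, and 2 in Treg against CD44hi, in place of 4. In Treg against CD44lo, 1 gene in place of 3 was called without any 1 of the 4 arrays compared. In CD44hi against CD44lo, 2 in place of 4 were called without CD44lo array 2. Of the 36 differences, 35 had the same sign on both slides, the exception being Prf1 in CD44lo against naive, with 0.09 and -0.71. The like share over all tested genes is not given here, so this count describes the 6 genes only. With 2 arrays in each group, the smallest p that an exact permutation test allows is 0.333, so each call rests on the spread that limma shares across genes.

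**Figure D2:**
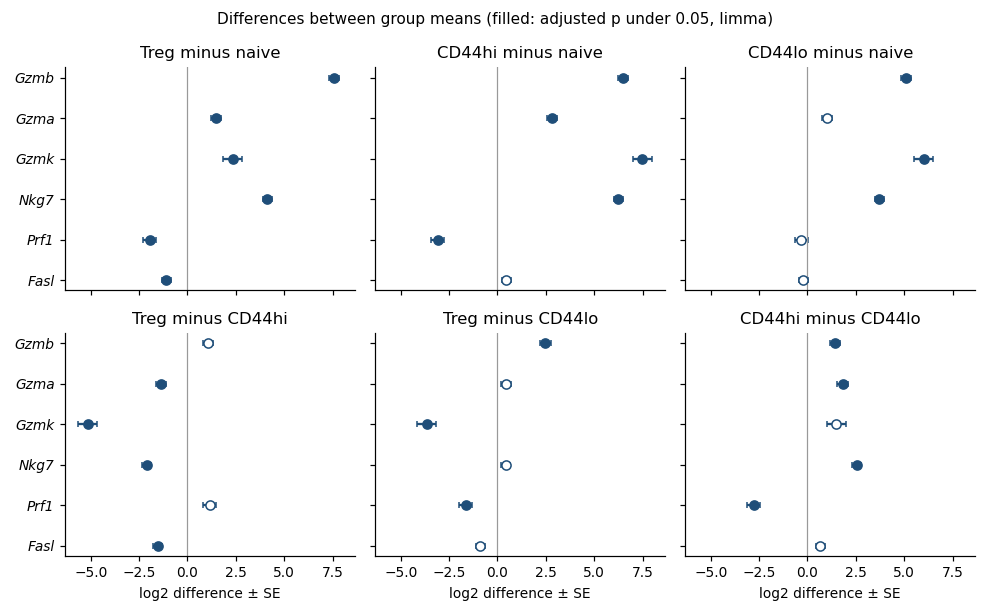
Log2 difference between group means (x axis, ± SE from limma) of the 6 genes in the 6 comparisons, with filled points for a Benjamini-Hochberg adjusted p under 0.05. Gzmb, Gzmk and Nkg7 lie to the right in all 3 comparisons with naive, Prf1 lies to the left where Treg or CD44hi is set against naive or CD44lo, and Gzmk lies far to the left where Treg is set against the CD44 groups.

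Across the 8 arrays, the log2 levels of Nkg7 and Gzma had a Pearson correlation of 0.95, those of Nkg7 and Gzmb of 0.88 and those of Nkg7 and Gzmk of 0.86. Prf1 ran against them, with -0.93 for Gzma, -0.84 for Nkg7, -0.72 for Gzmb and -0.58 for Gzmk. Fasl followed none of the others closely, its correlations lying between -0.35 and 0.40. These values describe 8 arrays that fall into 4 groups, whose means set most of each value, and carry no test.

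Among tested genes with a current symbol whose group means spanned at least 0.5 times the span of the gene in question, the likest profiles over the 8 arrays were named. For Gzma these were Gna15, S100a3 and Ctla2b, with Pearson correlations of 0.987, 0.986 and 0.986. For Gzmb they were Plpp1, Mdfic and Plagl1 (0.993, 0.992 and 0.992), and for Gzmk Cpne7, the chemokine gene Ccl5 and Fbn2 (0.987, 0.982 and 0.979). For Nkg7 they were Morc1, the inflammatory caspase gene Casp1 and Emp1 (0.996, 0.996 and 0.996). For Prf1 they were Slc49a4, Plaur and Acvrl1 (0.986, 0.977 and 0.976), and for Fasl Khdc3, Pmm2 and Prss12 (0.975, 0.973 and 0.972). No gene was among the nearest 3 of more than 1 of the 6.

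The promoters of the 6 genes, taken from RefSeq (GRCm38.p6) as 250 bases before to 50 after the annotated start, were searched for 4 motifs known from cytotoxic and activated T cells. All 6 genes had an entry. Those of Gzmb, Nkg7, Gzmk and Prf1 are printed on the strand of the gene, since these genes had the largest differences and Prf1 ran opposite to the other 3. Capitals mark the matches.
Gzmb promoter, minus strand, chr14:56262285-56262584: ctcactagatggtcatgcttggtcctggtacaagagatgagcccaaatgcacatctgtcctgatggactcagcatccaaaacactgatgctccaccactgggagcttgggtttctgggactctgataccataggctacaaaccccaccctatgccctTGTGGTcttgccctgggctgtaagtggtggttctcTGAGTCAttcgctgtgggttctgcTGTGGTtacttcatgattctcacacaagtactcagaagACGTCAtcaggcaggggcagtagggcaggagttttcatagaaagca
Nkg7 promoter, plus strand, chr7:43436888-43437187: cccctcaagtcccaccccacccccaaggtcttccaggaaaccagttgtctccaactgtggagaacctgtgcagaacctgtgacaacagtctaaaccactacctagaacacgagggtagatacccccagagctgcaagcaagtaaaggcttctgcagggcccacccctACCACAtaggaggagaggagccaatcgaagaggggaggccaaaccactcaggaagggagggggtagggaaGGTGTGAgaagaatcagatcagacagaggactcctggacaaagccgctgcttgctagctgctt
Gzmk promoter, minus strand, chr13:113180916-113181215: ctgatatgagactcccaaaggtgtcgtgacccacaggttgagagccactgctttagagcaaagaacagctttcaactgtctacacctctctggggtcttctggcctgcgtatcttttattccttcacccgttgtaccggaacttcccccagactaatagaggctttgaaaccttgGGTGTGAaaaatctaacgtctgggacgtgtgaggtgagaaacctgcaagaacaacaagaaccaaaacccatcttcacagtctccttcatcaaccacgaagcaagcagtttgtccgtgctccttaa
Prf1 promoter, plus strand, chr10:61297586-61297885: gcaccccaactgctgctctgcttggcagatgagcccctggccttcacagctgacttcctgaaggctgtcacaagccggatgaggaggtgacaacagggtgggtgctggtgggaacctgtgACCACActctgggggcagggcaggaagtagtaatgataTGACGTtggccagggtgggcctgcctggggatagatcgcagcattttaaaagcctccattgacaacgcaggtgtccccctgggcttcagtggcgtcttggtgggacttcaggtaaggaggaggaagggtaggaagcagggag
The RUNX motif TGTGGT, searched on both strands, was found in 4 of the 6 promoters (Gzmb, Gzma, Nkg7 and Prf1) and in 16.8% of all 32851 promoters. Gzmb held it in 2 places, at -93 and -34 from the start. The T-box motif GGTGTGA was found in Gzmk and Nkg7, at -75 and -13, and in 3.98% of all promoters. The AP-1 motif TGANTCA was found in Gzmb, at -58 (7.81% of all promoters). The motif TGACGT, a part of the cyclic AMP response element (CRE), was found in Gzmb and Prf1 (7.51% of all promoters). The matches do not overlap each other, and none of the 4 motifs was found in the Fasl window. Prf1, whose level ran opposite to that of Gzmb, also held RUNX and CRE matches, each on the other strand than in Gzmb. The CRE match lay at 5 in Gzmb, past the start, and at -92 in Prf1. A match is a description of letters and not a shown binding site.

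**Figure D3:**
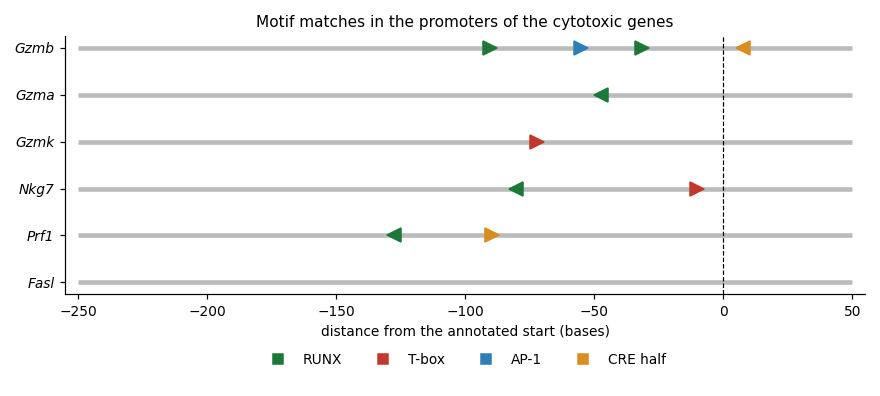
Places of the 4 motifs in the promoters of the 6 genes, with the distance from the annotated start in bases on the x axis and arrowheads to the right where the letters stand as spelled on the strand of the gene. Gzmb held 4 matches, Nkg7 and Prf1 2 each, Gzma and Gzmk 1 each and Fasl 0.

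Of the 7 other granzymes on the array, 3 were tested. In RefSeq (GRCm38.p6), Gzmb stands at the end of a run of 7 granzyme genes on chromosome 14, which also holds Gzmc, Gzmd, Gzme, Gzmf, Gzmg and Gzmn. Of these neighbours, Gzme was well above background on 1 of the 8 arrays (a CD44hi array), and Gzmf, Gzmg and Gzmn on 0. Gzmc was called in none of the 6 comparisons and lay 0.57 on the log2 scale above naive in Treg (limma, adjusted p = 0.326). Gzmd rose 5.25-fold in Treg (adjusted p = 0.00693) and 3.67-fold in CD44hi (adjusted p = 0.0148) over naive, at processed signals of 73.29 and 148.0 in Treg, 66.79 and 73.41 in CD44hi and 11.41 and 14.03 in naive. Only 1 of the naive arrays was well above background for Gzmd, which limits how far the size of these folds can be trusted. The genes of this run are close copies, and binding of RNA from one to the probe of another was not tested. Gzmm, a granzyme gene outside the run, rose 1.81-fold in CD44hi (adjusted p = 0.00466).

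The genes of the pathway are set against all tested genes, of which 11.6% were higher and 10.3% lower in Treg, 13.2% and 14.5% in CD44hi and 4.53% and 0.761% in CD44lo, each relative to naive. The median log2 difference of all tested genes from naive was -0.20 in Treg, -0.15 in CD44hi and -0.13 in CD44lo. Of 10 genes of granule contents and protease processing, 1 was higher and 1 lower in Treg, 3 were higher and 1 lower in CD44hi and 0 were called in CD44lo, each against naive, so the Treg counts are near the shares of all tested genes. The list's median log2 difference from naive was 0.05 in Treg, -0.21 in CD44hi and -0.17 in CD44lo. Cst7, an inhibitor of the cathepsins that activate progranzymes, rose 5.16-fold in Treg (adjusted p = 0.00481) and 3.64-fold in CD44hi (adjusted p = 0.0106). Srgn, whose proteoglycan packs granzymes and perforin, rose 1.83-fold in CD44hi (adjusted p = 0.0229) and lay at log2 0.65 in Treg, not called (adjusted p = 0.0691). Ctsw, a cathepsin of cytotoxic cells, was called in 0 of the 6 comparisons. Igf2r, which carries mannose-6-phosphate proteins such as granzyme B to lysosomes and also takes up granzyme B, fell 2.38-fold in CD44hi relative to naive (adjusted p = 0.00774) and was 3.87-fold higher in Treg than in CD44hi (adjusted p = 0.00374).

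Of 13 genes of granule docking and release, 2 were higher and 1 lower in Treg, 4 higher and 1 lower in CD44hi and 1 higher and 0 lower in CD44lo, each against naive. In Treg this is near the 11.6% and 10.3% of all tested genes, and in CD44hi 13.2% and 14.5% of them were called. The medians were 0.28 in Treg, 0.33 in CD44hi and 0.17 in CD44lo. Stx11, a syntaxin needed for granule release, rose 18.3-fold in Treg, 27.1-fold in CD44hi and 14.1-fold in CD44lo (limma adjusted p = 4.68e-04, 2.41e-04 and 0.00174). Low naive signals of Stx11, at 89.6 and 64.02, limit how far the size of these folds can be trusted. Sytl3, a synaptotagmin-like protein gene, rose 13.3-fold in CD44hi (adjusted p = 3.46e-04), while Treg differed from naive by log2 0.23 (adjusted p = 0.613), and Treg was 11.4-fold below CD44hi (adjusted p = 0.00176). Its relative Sytl1 rose 2.44-fold in Treg over naive (adjusted p = 0.00319) and was 2.03-fold higher in Treg than in CD44hi (adjusted p = 0.018). Lyst, a regulator of lysosome size, fell 4.49-fold in Treg (adjusted p = 0.00168) and 2.32-fold in CD44hi (adjusted p = 0.0154), the groups in which Prf1 also fell.

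Among 4 tested inhibitors of granule proteases, 1 was higher in Treg, 2 in CD44hi and 1 in CD44lo than in naive, and 0 lower, where 11.6%, 13.2% and 4.53% of all tested genes were higher. Their median log2 difference was 0.75 in Treg, 1.07 in CD44hi and 0.21 in CD44lo, over 4 genes. Serpina3g, which is known as an inhibitor of lysosomal cathepsins rather than of granzymes, rose 113-fold in Treg, 74-fold in CD44hi and 58.2-fold in CD44lo (limma adjusted p = 5.37e-05, 6.37e-05 and 2.56e-04). Serpinb6b rose 2.71-fold in CD44hi (adjusted p = 0.0133). Serpinb9, the inhibitor of granzyme B, was not called, with log2 differences from naive of 0.54 in Treg (adjusted p = 0.0594), 0.53 in CD44hi (adjusted p = 0.0547) and 0.07 in CD44lo (adjusted p = 0.815).

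On the Fas ligand side, 11 genes of death ligands, receptors and adaptors were tested, of which 4 were higher and 2 lower in Treg, 2 higher and 2 lower in CD44hi and 1 higher and 0 lower in CD44lo, each against naive. The CD44hi counts are near the 13.2% and 14.5% of all tested genes, and in Treg 11.6% and 10.3% were called. Medians of these genes were 0.47 in Treg, 0.03 in CD44hi and -0.03 in CD44lo. Fas itself was called in 0 of the 6 comparisons, and its difference from naive was log2 0.47 in Treg (adjusted p = 0.201). Tnfsf10, the gene of the death ligand TRAIL, rose 2.38-fold in Treg (adjusted p = 0.0134), where Fasl fell.

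Of 14 listed transcription factors of the cytotoxic programme, 13 were tested. Against naive, 5 were higher and 4 lower in Treg, 7 higher and 2 lower in CD44hi and 5 higher and 0 lower in CD44lo, where all tested genes gave 11.6% and 10.3%, 13.2% and 14.5%, and 4.53% and 0.761%. The factors had a median log2 difference of -0.12 in Treg, 1.02 in CD44hi and 0.13 in CD44lo. Tbx21 (T-bet), a T-box factor known to drive Ifng, rose 14.1-fold in Treg, 103-fold in CD44hi and 18.1-fold in CD44lo (limma adjusted p = 7.85e-04, 7.97e-05 and 0.00136), which placed CD44hi highest, as for Gzma and Nkg7. Eomes, the related factor of memory and cytotoxic cells, fell 1.6-fold in Treg (adjusted p = 0.0351) and rose 2.02-fold in CD44hi (adjusted p = 0.00667), and its mean was lowest in Treg, below naive, where Gzmk was lowest in naive. Runx3, which supports Prf1 and granzyme genes in CD8 T cells, fell 1.74-fold in Treg (adjusted p = 0.0208) and was not called in CD44hi (log2 0.26, adjusted p = 0.312). Zbtb7b, which holds back the CD8 programme in CD4 T cells, was called in 0 of the 6 comparisons. Prdm1 rose 3.78-fold in Treg, 3.03-fold in CD44hi and 2.44-fold in CD44lo (adjusted p = 3.14e-04, 5.42e-04 and 0.00425). Its group means stood in the order of those of Gzmb, but neither Treg against CD44hi nor CD44hi against CD44lo was called (adjusted p = 0.306 and 0.289).

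Of 8 tested genes of cytokines, chemokines and receptors used by cytotoxic cells, 6 were higher and 1 lower in Treg, 7 higher and 0 lower in CD44hi and 5 higher and 0 lower in CD44lo than in naive, where 11.6% and 10.3%, 13.2% and 14.5%, and 4.53% and 0.761% of all tested genes were called. In Treg against CD44hi, 0 were higher and 5 lower, where 4.15% and 4.04% of all tested genes were called. Median log2 differences from naive were 2.13 in Treg, 3.55 in CD44hi and 2.36 in CD44lo. Ifng rose 77.2-fold in Treg, 405-fold in CD44hi and 68.5-fold in CD44lo (limma adjusted p = 2.31e-04, 6.44e-05 and 6.04e-04). Its naive signals were 26.15 and 36.27, a low level that limits how far the size of these folds can be trusted. Ccl5, whose product is stored in cytotoxic cells, rose 5.59-fold in Treg, 52.1-fold in CD44hi and 21-fold in CD44lo (adjusted p = 0.00791, 2.05e-04 and 0.00173), and was also among the 3 genes nearest to Gzmk. Crtam, an adhesion receptor of cytotoxic CD4 T cells, fell 5.79-fold in Treg (adjusted p = 0.0012).

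**Figure D4:**
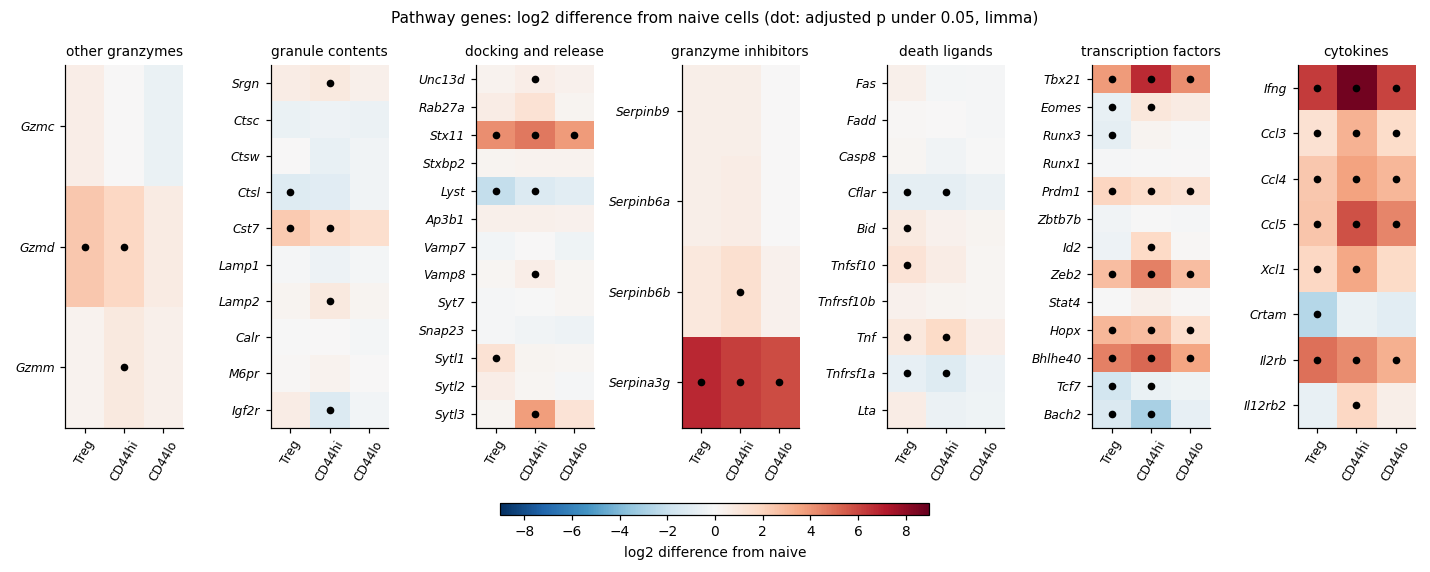
Log2 difference from naive (colour) of tested pathway genes, with 1 left out, in Treg, CD44hi and CD44lo, by role, with a dot where the Benjamini-Hochberg adjusted p was under 0.05. Strong colours are found for Stx11, Serpina3g, Tbx21, Bhlhe40, Ifng, Ccl5 and Il2rb, and fewer granule content and release genes are marked in Treg and CD44lo than in CD44hi.

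Markers of CD8 T cells and NK cells, in which these genes are best known, moved with some of the results. Of 17 such markers, 12 and 11 were well above background on the Treg arrays, 12 and 14 on the CD44hi arrays, 7 and 7 on the CD44lo arrays and 8 and 8 on the naive arrays. Relative to naive, 5 of the 11 tested NK cell markers were higher and 3 lower in Treg, 6 higher and 2 lower in CD44hi and 1 higher and 3 lower in CD44lo, where 11.6% and 10.3%, 13.2% and 14.5%, and 4.53% and 0.761% of all tested genes were called. The 5 in Treg include Klrk1, which was not well above background in Treg or in naive. They also include Klra8, which was not well above background in naive and gave no usable fold. The summed signal of the 17 markers, as a multiple of the array's 75th percentile, was 6.44 and 6.00 in Treg, 6.50 and 6.39 in CD44hi, 8.65 and 7.58 in CD44lo and 15.4 and 21.9 in naive. It was highest in naive, and in CD44lo it was closer to CD44hi than to naive. The sum adds probes whose levels cannot be set against each other, so the brightest probes weigh most. Most of the sum on naive array 1 came from Cd8b1 and Klrd1, with signals of 8614 and 6017. Klrd1 (CD94), a receptor chain of NK and CD8 T cells, read 193.9 and 158.6 in Treg, 1720 and 1222 in CD44hi, 2970 and 1982 in CD44lo and 6017 and 4862 in naive. It fell 48.4-fold in Treg, 5.62-fold in CD44hi and 2.95-fold in CD44lo relative to naive (limma adjusted p = 6.95e-05, 0.00143 and 0.0311). Cd8b1 fell 1.98-fold in Treg, 3.18-fold in CD44hi and 2.14-fold in CD44lo (adjusted p = 0.0209, 0.00206 and 0.0361), while Cd8a stayed at signals of 4.716 to 45.73 on the 8 arrays and was called in 0 of the 6 comparisons. Ncr1, which defines NK cells, was well above background on 1 of the 8 arrays, CD44hi array 2, at a signal of 64.06.

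Some other NK cell receptors were highest in CD44hi. Fcgr3 was not, with mean log2 levels of -2.38 in naive, -2.83 in CD44lo, -4.19 in CD44hi and -5.44 in Treg. The means of Cd244a, Tyrobp and Fcer1g were highest in naive too. Klrb1c (NK1.1) was 4.02-fold higher in Treg, 20-fold higher in CD44hi and 9.57-fold higher in CD44lo than in naive (adjusted p = 0.00139, 6.44e-05 and 4.96e-04), and 2.38-fold lower in Treg than in CD44lo (adjusted p = 0.0283), so its order was that of Gzmk. The naive signals of Klrb1c were low, at 33.07 and 27.81, which limits how far the size of its folds over naive can be trusted. Klrk1 (NKG2D) was at least 10.4-fold higher in CD44hi than in naive (adjusted p = 2.47e-04), at 171.8 and 212.7 in CD44hi and not well above background in the other 3 groups. Of 6 tested markers of B cells, 3 were higher in Treg, 4 in CD44hi and 2 in CD44lo than in naive and 0 were lower, where 11.6%, 13.2% and 4.53% of all tested genes were higher. Of 4 markers of regulatory T cells, 4 were higher than naive in each of Treg, CD44hi and CD44lo, beside the same shares of all tested genes. The part of any such cells in the levels of the 6 genes was not tested. In RNA from bulk samples, a lower share of cells that use a gene and less RNA of it per cell cannot be told apart.

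**Figure D5:**
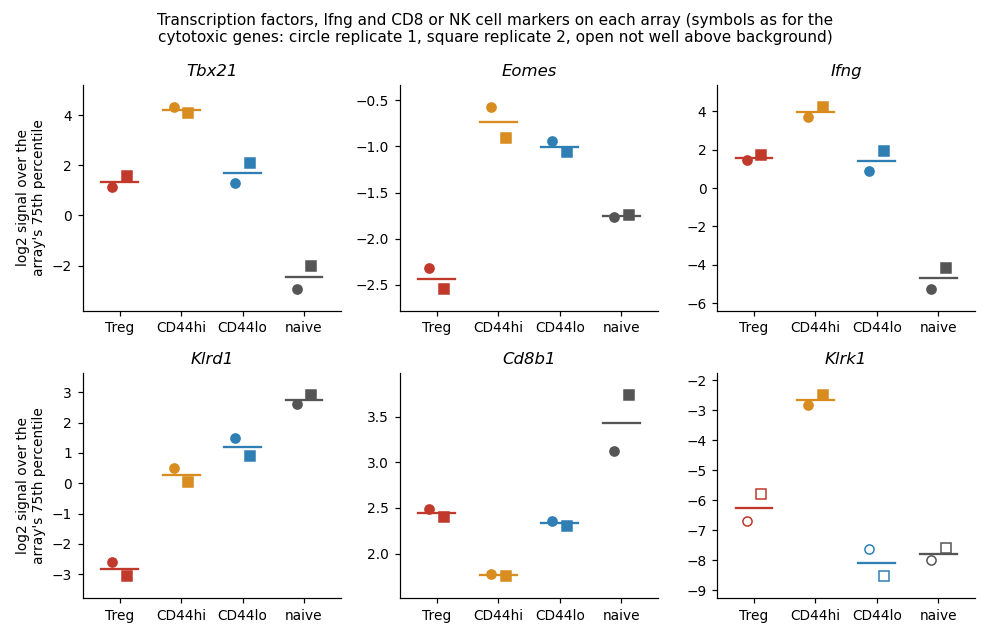
Log2 processed signal over the array's 75th percentile (y axis) of Tbx21, Eomes, Ifng, Klrd1, Cd8b1 and Klrk1 in Treg, CD44hi, CD44lo and naive, with 1 point per array, a bar at the group mean and open points where not well above background. Tbx21, Ifng and Klrk1 were highest in CD44hi, as were Gzma and Nkg7, and Klrd1 and Cd8b1 were highest in naive.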

How the data were processed

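Cy3-labelled RNA, amplified with a linear kit for low inputs per the labels' protocols, was hybridized to 8 arrays, and the authors' image software was Agilent Feature Extraction 9.5.1.1, as the file headers record. In the deposited files each spot has an intensity, of which the processed signal is background-subtracted and detrended within the array, and flags (unit other, per the file headers). The authors' deposited value table is on a log2 scale, its column medians lie between 6.86 and 6.88, and it follows the raw median signal of each array (Spearman correlation 0.9999 or above across probes). The submitters' processing notes name limma, and the further steps are not given in the sources used here. The direction of that table was taken from this match.

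Control and outlier spots were left out, spots of a probe were averaged and each gene was represented by its brightest probe on average. The log2 level of a gene is the log2 of its processed signal less that of the array's 75th percentile (control spots excluded). A gene entered the test if both arrays of any group had the probe well above background. All 8 arrays entered 1 fit in limma 3.58.1 (R 4.3.3) with group as the only term, and 4 residual and 2.62 prior degrees of freedom. The threshold for a call was a 2-sided p under 0.05 after Benjamini-Hochberg adjustment over 17996 genes, without a fold minimum. The ± values give the fit's standard error, or the SD where so named, with n = 2 arrays per group throughout. The fit was tested on simulated data.

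The members and the lists of other genes were chosen with earlier results of these data known. From each list, the 3 called genes with the largest difference in a comparison could be named, and Tbx21, Eomes, Runx3, Prdm1, Zbtb7b, Serpinb9, Serpinb6b, Ifng, Ccl5, Srgn, Ctsw, Cst7 and Fas were always named. Gene lists are described by counts only. Values of 2 genes of these lists are not reported here. For each member, the 3 tested genes with the highest Pearson correlation were named. Alternatives covered background correction, normalization, filter, probe choice, spread, replicate number, slide and each array left out. Probe positions are those of the files (mm7), and promoters those of RefSeq (GRCm38.p6). The number of arrays limits the precision of each value.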

Additional observations from a re-analysis of the deposited data

How the results depend on the processing

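Of 672 values of single genes under 19 alternatives, 613 kept their direction and their side of the threshold, 37 lost a call, 18 gained one and 4 turned sign. Of 36 differences, 25 were called, and 24 of these kept their sign under each alternative in which the gene was tested. The exception was Gzmk in Treg against naive with normexp background correction (log2 -0.0936). The other turned signs were uncalled differences of CD44lo minus naive, namely Prf1 with 1 array left out (0.1774 without naive array 1, -0.7993 at the other end) and Fasl with the mean of its probes (0.0484) or with 1 array left out (0.0071 without CD44lo array 2, -0.4205 at the other end). The causes were not tested. Alternatives are reported gene by gene for the 6 genes only, so folds of other genes are given on 1 scale. With only genes well above background on all 8 arrays, Gzmb and Gzmk were not tested, and 3 genes were called in CD44hi against naive, 1 in CD44lo against naive and 1 in Treg against CD44lo. With 1 array left out, the number of genes called ranged from 2 to 6 in Treg against naive, from 5 to 5 in CD44hi against naive, from 3 to 4 in CD44lo against naive, from 2 to 5 in Treg against CD44hi, from 1 to 3 in Treg against CD44lo and from 2 to 5 in CD44hi against CD44lo. A lone array was then assumed to vary as the other groups did. Of the 25 calls, 15 were kept without any 1 array.

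The labels do not say that equal replicate numbers share an animal, and 2 numbers are too few to tell from the data. Deviations of same-numbered arrays had correlations of 0.0564 to 0.3316 between groups. With the replicate block, 6, 5 and 3 genes were called in Treg, CD44hi and CD44lo against naive, 5 in Treg against CD44hi, 4 in Treg against CD44lo and 4 in CD44hi against CD44lo. With the slide as a term, these counts were 6, 5, 3, 5, 2 and 4. The scan time coincided with the slide, so it was not run as a term of its own. Signals near background, as those of Gzmk in Treg, Gzmb and Gzmk in naive and Gzma in naive, limit the size of the differences that rest on them.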

Other observations

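Several transcription factors of effector T cells not yet described also differed between naive and other groups. Bhlhe40, a factor of activated T cells, rose 23.2-fold in Treg, 36-fold in CD44hi and 11.8-fold in CD44lo relative to naive (limma adjusted p = 7.01e-04, 3.43e-04 and 0.00492). Its naive signals were low, at 46.26 and 58.22, which limits how far the size of these folds can be trusted. It was not called in Treg against CD44hi, Treg against CD44lo or CD44hi against CD44lo (adjusted p = 0.493, 0.309 and 0.0762). Hopx rose 8.01-fold in Treg, 6.7-fold in CD44hi and 2.85-fold in CD44lo (adjusted p = 7.91e-05, 9.92e-05 and 0.00287). Its group means had the order of those of Gzmb, and here too the step between Treg and CD44hi was not called (adjusted p = 0.453). Zeb2, which works with T-bet in effector CD8 T cells, was at least 2.14-fold higher in Treg, at least 7.27-fold higher in CD44hi and at least 2.2-fold higher in CD44lo than in naive (adjusted p = 0.00136, 1.56e-04 and 0.00325). Id2 rose 3.48-fold in CD44hi over naive (adjusted p = 2.24e-04) and was 4.75-fold lower in Treg than in CD44hi (adjusted p = 5.17e-04). Bach2, which restrains effector genes, fell 2.49-fold in Treg and 7.66-fold in CD44hi relative to naive (adjusted p = 0.00424 and 1.34e-04). The mean of Bach2 was lowest in CD44hi and highest in naive, as was that of Prf1.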
